A study of Homo sapiens with 6 samples.

Results

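Autophagy machinery and cargo receptor genes were followed after silencing of GNE, the enzyme that makes the precursor of sialic acid, in Capan-1, an established cell line from a human pancreatic carcinoma. The 40 genes cover the start of the pathway, membrane supply, the conjugation enzymes, the ATG8 family and the cargo receptors. Each gene was represented by 1 probe set that the platform annotation gives to that gene alone, the one with the highest mean over the 6 arrays. Probe sets of the kind prone to cross-hybridisation (suffix _x_at) were considered only where a gene had no other. All 40 genes had a probe set of their own, and 36 of them were tested, among 10733 tested genes in all. The other 4 (ULK1, ULK2, MAP1LC3A and EPG5) had a mean log2 value of 4 or less on the probe set used, which is close to background on these arrays.

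Of the 6 arrays, 3 carried total RNA of cells given siRNA against GNE (siGNE) and 3 that of cells given a control siRNA named allStar in the labels. Both groups were transfected 2 times, 48 h apart, and were collected 72 h after the later round, with 300 ng of total RNA used for each array. In the titles each group carries the numbers 1 to 3, and arrays of one number are treated as a pair. How many siRNAs were used, and whether replicates are independent cultures, is not stated in the labels. The p-values thus reflect only how these arrays vary, which may be technical.

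Macroautophagy encloses cytoplasm in a double membrane that fuses with the lysosome. The ULK kinase complex starts it, a lipid kinase complex built on BECN1 and PIK3C3 marks the growing membrane, and ATG9A, ATG2 and WIPI proteins supply and recognise that membrane. A ubiquitin-like conjugation system then attaches ATG8 proteins to its lipid, and cargo receptors such as SQSTM1 bind both the cargo and ATG8. Receptors and lipidated ATG8 proteins are themselves degraded with the cargo. These data are transcript levels of whole cultures: fewer cells expressing a gene and less RNA per cell cannot be told apart, and autophagic activity was not measured.

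GNE itself had log2 values of 11.12, 11.47 and 10.86 in the control arrays and 8.39, 9.86 and 9.57 in the siGNE arrays, with no overlap. The difference was -1.88 (SE 0.29, adjusted p 0.0348 with the replicate block and 0.131 without it), and a two-sided exact permutation test of the 6 values gave p = 0.1, which is the lowest p possible with 3 arrays a group. The 7 epithelial markers with a probe set (KRT7, KRT8, KRT18, KRT19, EPCAM, CDH1 and MUC1) had mean log2 values between 10.6 and 15.3. Of these, KRT8 (0.27), KRT18 (0.20) and MUC1 (-0.17) had the smallest unadjusted p, and none passed. Of 11 markers of other cell types with a probe set, 10, including PTPRC, PECAM1, COL1A2 and INS, lay between 1.78 and 3.04. The exception was COL1A1, at 8.03 in control and 8.74 in siGNE cells, which rose by 0.71 with the replicate block (adjusted p 0.0441, 0.512 without it). Its part in the results below was not tested.

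Several cargo receptor and ATG8 genes rose after GNE siRNA, and no gene of the other steps passed the test on the probe set used at the settings chosen here. Of the 36 tested genes, 6 rose in limma with the replicate number as a block at an adjusted p under 0.05: SQSTM1, TAX1BP1, CALCOCO2 and OPTN among the receptors and MAP1LC3B and GABARAPL1 in the ATG8 family. That is 16.7% of the tested members, against 4.11% of all tested genes that rose. None of the 36 fell, where 5.79% of all tested genes did, and 6 members lay below zero at an unadjusted p under 0.05. In either direction, 18 of the 36 members had an unadjusted limma p under 0.05 with the block, against 3490 of all 10733 tested genes. The 6 rises stood among 10 tested receptor and ATG8 genes, and of the other 26 tested members 0 passed in either direction. This is a split by adjusted p and not by size. WIPI1 (0.68) and WDR45 (0.55) did not pass but differed by more than TAX1BP1 (0.54) and OPTN (0.47), and ATG4C differed by -0.69. That split depends on the settings. On the same probe sets WIPI1 also rose with quantile normalization, UVRAG and WIPI1 with median centring, and ATG101, UVRAG, WDR45 and WIPI1 when only probe sets with a mean above 6 were tested, where ATG10 and ATG4C fell. With a trended and robust prior ATG101, UVRAG, WDR45 and WIPI1 rose too, as did the receptor NBR1, and ATG4C fell. The median log2 difference was 0.11 over the members and -0.02 over all tested genes, and the members' median was 0.27, 0.04 and 0.04 in pairs 1, 2 and 3.

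These calls rest on the pairing. Without the replicate block limma called 0 members, as it called 0.028% of all tested genes higher and 0% lower. In that fit 13 members had an unadjusted p under 0.05 (36.1%, against 16.3% of all tested genes), and the smallest adjusted p was 0.0600, for SQSTM1. The calls also ended when probe sets near background entered the fit and its adjustment or when pair 1, 2 or 3 was left out, settings in which no gene of the whole table was called.

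The direction can be read from the arrays without a fit. The siGNE value was the higher one in all 3 pairs for 15 of the 36 tested members (41.7%, against 27% of all tested genes) and the lower one in all 3 pairs for 6 (16.7%, against 30.9%). All siGNE values lay above all control values for 10 members (27.8%, against 9.42% of all tested genes) and below them for 4 (11.1%, against 13.9%).

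**Figure D1:**
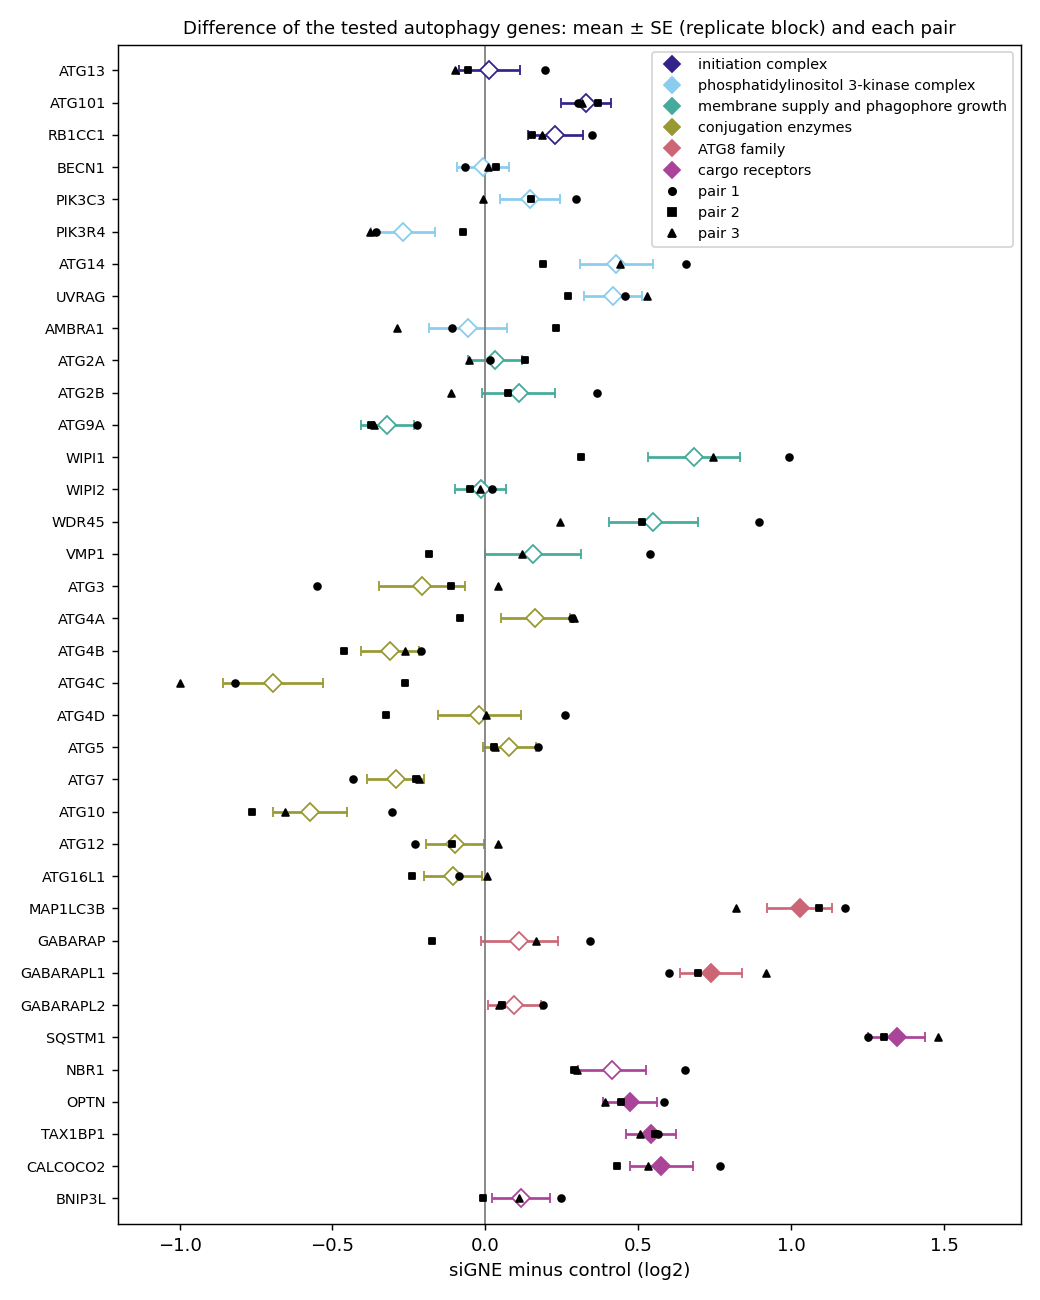
Difference between siGNE and control (log2, horizontal axis) for the 36 tested autophagy genes, ordered and coloured by role; diamonds with bars are the mean ± SE of the fit with the replicate block, filled where the gene rose, and black symbols are pairs 1 to 3. The 6 filled diamonds, from 0.47 for OPTN to 1.35 for SQSTM1, all lie in the lower part, among ATG8 genes and receptors, and the conjugation enzymes lie mostly left of zero.

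SQSTM1 (p62) binds ubiquitin and ATG8 proteins and also holds KEAP1, the repressor of NRF2. Its log2 values were 13.18, 12.93 and 13.03 in control and 14.43, 14.23 and 14.51 in siGNE cells. Every siGNE array stood more than a log2 unit above every control array. The difference was 1.35 (SE 0.09), a 2.54-fold rise with a limma adjusted p of 0.0179, and the pairs gave 1.25, 1.30 and 1.48. Among the 10733 tested genes it ranked 34 from the highest difference.

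TAX1BP1, CALCOCO2 and OPTN link ubiquitinated cargo, including bacteria and damaged mitochondria, to ATG8 proteins. TAX1BP1 read 11.20, 11.19 and 11.00 in control and 11.76, 11.75 and 11.51 in siGNE cells, a rise of 0.54 (SE 0.08, adjusted p 0.0342). CALCOCO2 (NDP52) read 10.75, 10.76 and 10.71 against 11.51, 11.19 and 11.24, a rise of 0.58 (SE 0.10, adjusted p 0.0422). When all 4 of its probe sets were averaged, the difference was 0.27 and did not pass (adjusted p 0.0532). Only 2 of these 4 had a mean above 4 and were tested. OPTN read 9.04, 8.94 and 8.77 against 9.63, 9.38 and 9.16, a rise of 0.47 (SE 0.09, adjusted p 0.0443). In none of these receptors did a siGNE array reach down to the control values, and the rises correspond to 1.46-fold, 1.49-fold and 1.39-fold. The pairs agreed most closely for TAX1BP1, at 0.57, 0.55 and 0.51, and were widest apart for CALCOCO2, at 0.77, 0.43 and 0.53.

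NBR1, a receptor that acts with SQSTM1, read 11.49, 11.81 and 11.68 in control and 12.14, 12.10 and 11.98 in siGNE cells. The groups did not overlap, but the difference of 0.41 (SE 0.11) did not pass, with a limma adjusted p of 0.0814. Pair 1 gave 0.65 and pairs 2 and 3 gave 0.29 and 0.30. The mitochondrial receptor BNIP3L differed by 0.12 (SE 0.09, adjusted p 0.450), with values between 12.38 and 12.86 that overlapped between the groups.

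MAP1LC3B encodes LC3B, the ATG8 protein most used as a marker of autophagosomes. It read 12.11, 12.03 and 12.05 in control and 13.29, 13.12 and 12.87 in siGNE cells. The control arrays lay within 0.08 log2 units of each other, and every siGNE array was well above them. It rose by 1.03 (SE 0.11), which is 2.04-fold (limma adjusted p 0.0242). GABARAPL1 read 7.63, 7.48 and 7.74 in control and 8.23, 8.18 and 8.66 in siGNE cells, a rise of 0.74 (SE 0.10), or 1.67-fold, with an adjusted p of 0.0298. MAP1LC3B has a near-identical copy (MAP1LC3B2) and GABARAPL1 a close relative (GABARAPL3), which these probe sets may also detect.

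The other ATG8 genes did not pass. GABARAP read 12.23, 12.58 and 12.11 in control and 12.57, 12.40 and 12.28 in siGNE cells, a difference of 0.11 (SE 0.13, adjusted p 0.591), with pair 2 in the opposite direction. GABARAPL2 (GATE-16) differed by 0.09 (SE 0.09, adjusted p 0.502), between 12.40 and 12.61. The MAP1LC3A probe set used was near background, at 3.25, 3.57 and 3.20 in control and 3.25, 3.25 and 3.44 in siGNE cells, and was not tested. A brighter MAP1LC3A probe set, of the kind prone to cross-hybridisation that the selection passed over, had a mean of 4.42 and differed by 0.02 (SE 0.08, adjusted p 0.889). Whether the differences of 2 ATG8 genes differ from each other was not tested.

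**Figure D2:**
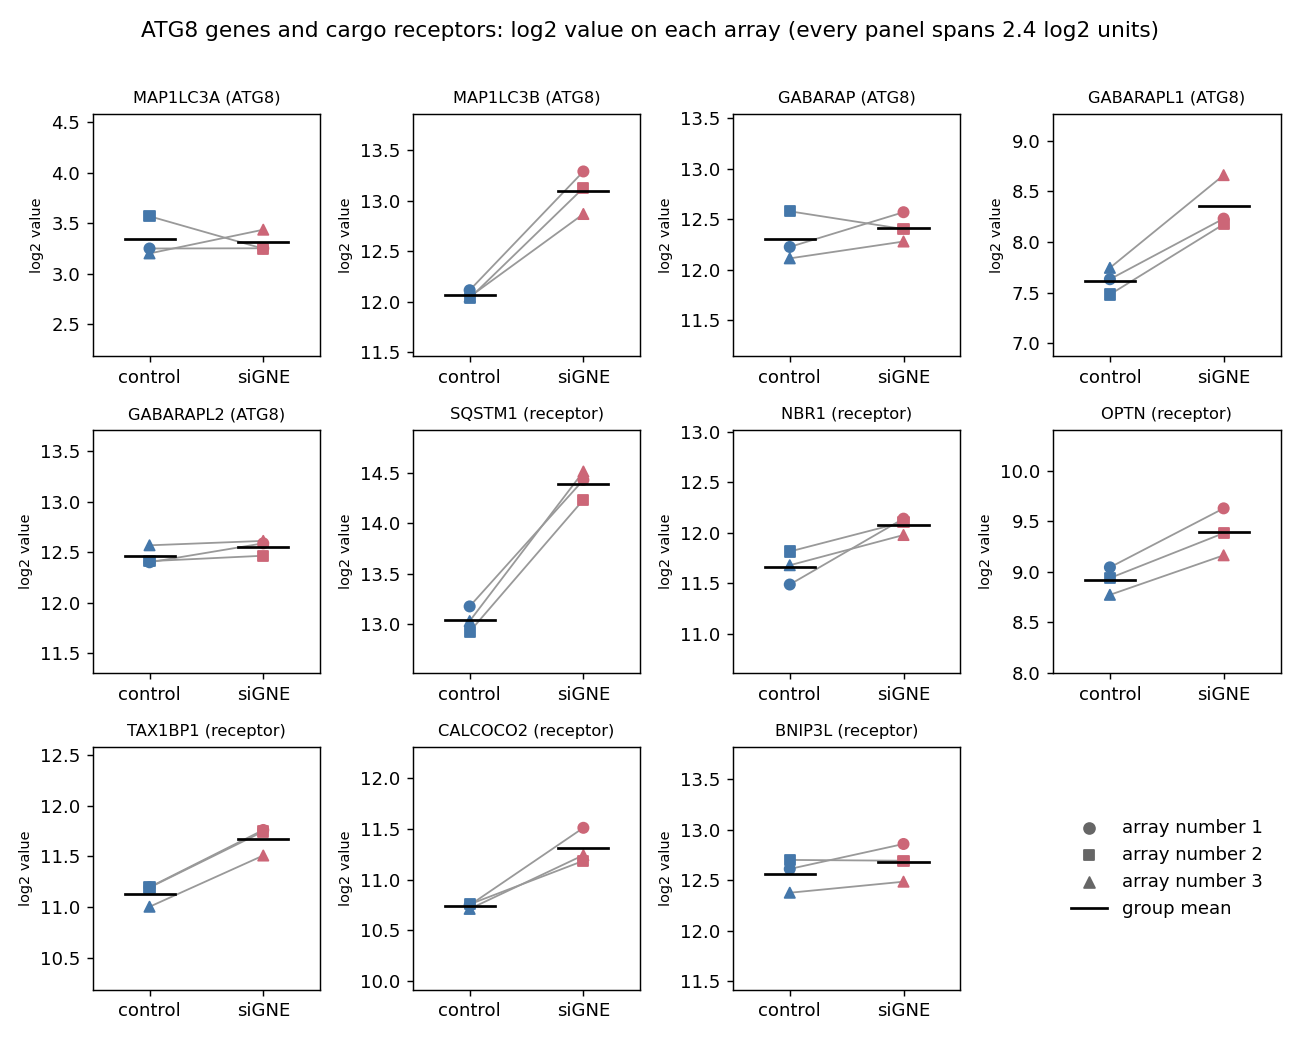
Log2 value on each array (vertical axis) for the 5 ATG8 genes and 6 cargo receptors in control (blue) and siGNE (red) cells; symbols mark the array number, grey lines join a pair and black bars are group means of 3 arrays. All lines of SQSTM1, MAP1LC3B, GABARAPL1, TAX1BP1, CALCOCO2, OPTN and NBR1 run upward with no overlap of the groups, while GABARAP, GABARAPL2 and BNIP3L overlap and MAP1LC3A stays near background.

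None of the 3 motifs searched near gene starts was shared by all members that rose. RefSeq windows of 250 bases before to 50 after a gene's start (GRCh38.p14) were at hand for 34 of the 40 members, including all 6 that rose. The core of the antioxidant response element bound by NRF2 with small MAF proteins, TGACNNNGC on either strand, was present in 3 of the 34 (ATG101, CALCOCO2 and MAP1LC3B). Of the 6 that rose, 2 had it, and they are shown as the only matches to any of the 3 motifs among them. Of all genes with a window, 16.1% held the motif, and of all windows 13.3%. The 250 bases upstream of the start are shown for both genes, 5′ to 3′, with the match in capitals. The MAP1LC3B stretch is chr16:87392086-87392335 and the CALCOCO2 stretch chr17:48830785-48831034, both on the plus strand, and the matches begin 46 and 129 bases before the start.
MAP1LC3B: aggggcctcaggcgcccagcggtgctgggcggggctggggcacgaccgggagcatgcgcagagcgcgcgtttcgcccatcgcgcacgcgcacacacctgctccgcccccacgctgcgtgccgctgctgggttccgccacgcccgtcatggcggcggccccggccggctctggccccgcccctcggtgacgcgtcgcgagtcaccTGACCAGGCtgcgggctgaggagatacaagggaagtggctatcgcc
CALCOCO2: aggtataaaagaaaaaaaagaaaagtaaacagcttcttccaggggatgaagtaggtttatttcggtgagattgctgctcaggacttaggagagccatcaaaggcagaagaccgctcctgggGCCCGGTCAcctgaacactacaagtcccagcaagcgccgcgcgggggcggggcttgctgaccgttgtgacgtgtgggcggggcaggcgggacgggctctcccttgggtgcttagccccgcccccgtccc
In CALCOCO2 the match lies on the opposite strand. A core of the composite element bound by ATF4 with C/EBP proteins, TGATGNAA, was found in 1 of the 34 members, WDR45, against 4.46% of all genes with a window (3.62% of all windows). The core of the CLEAR element bound by TFEB, TCACGTGA, was found in 1, ATG3, against 1.18% of all genes with a window (0.98% of all windows). Matches in such windows are a description of the letters and not of binding, and elements farther from the start were not searched.

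None of the 3 tested genes of the initiation complex passed. ATG101, a stabilising subunit, had the smallest unadjusted p, with 9.63, 9.50 and 9.24 in control and 9.94, 9.87 and 9.55 in siGNE cells. Each pair was higher by nearly the same amount (0.30, 0.37 and 0.31), but the groups overlapped, and the difference of 0.33 (SE 0.08) had a limma adjusted p of 0.0717. The scaffold RB1CC1 (FIP200) differed by 0.23 (SE 0.09, adjusted p 0.163) and ATG13, which links the scaffold to the kinases, by 0.01 (SE 0.10, adjusted p 0.942). The kinases themselves were near background: ULK1 read 3.45, 3.45 and 3.42 in control and 4.15, 3.44 and 3.65 in siGNE cells, and ULK2 lay between 3.73 and 4.07.

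In the lipid kinase complex 0 of 6 tested members passed, and the 2 subunits that set where the enzyme acts had the largest positive differences. UVRAG, the subunit of the endosomal and late autophagic form, read 8.34, 8.38 and 7.95 in control and 8.79, 8.65 and 8.48 in siGNE cells without overlap, a difference of 0.42 (SE 0.10, adjusted p 0.0603). ATG14, which directs the complex to the forming autophagosome, differed by 0.43 (SE 0.12, adjusted p 0.0856), with pair values of 0.66, 0.19 and 0.44. The scaffold BECN1 differed by -0.01 (SE 0.08), and the catalytic subunit PIK3C3 by 0.15 (SE 0.10). The regulatory subunit PIK3R4 differed by -0.27 (SE 0.10, adjusted p 0.156) and AMBRA1, which binds BECN1, by -0.06 (SE 0.13, adjusted p 0.795).

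Among 7 genes of membrane supply, none passed on the probe set used. WIPI1, which binds the lipid mark, read 8.24, 8.29 and 7.83 in control and 9.23, 8.61 and 8.58 in siGNE cells without overlap, a difference of 0.68 (SE 0.15, adjusted p 0.0579). WDR45 (WIPI4), from the same family, differed by 0.55 (SE 0.15, adjusted p 0.0786), also without overlap, with pair values of 0.89, 0.51 and 0.24, while WIPI2 differed by -0.02 (SE 0.08). The membrane protein ATG9A lay below control in all pairs, by -0.32 (SE 0.09, adjusted p 0.0829). The lipid transfer proteins ATG2A and ATG2B differed by 0.03 and 0.11. VMP1 differed by 0.16 (SE 0.16), but its probe set read 6.75, 9.25 and 7.94 in the control arrays and 7.28, 9.06 and 8.06 in the siGNE arrays. It varied by array number over 2.50 log2 units and far less between the groups. A further 3 VMP1 probe sets are annotated to other genes too and were not used.

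Of the 10 conjugation enzymes, none passed, and 8 of 10 had a difference below zero (median -0.16), of which ATG4D turned positive with quantile normalization (0.01) and median centring (0.02), and ATG3 (1.01) and ATG4B (0.15) when the probe sets of a gene were averaged, where ATG5 turned negative (-0.38). The count below zero thus depends on the probe set chosen. Above zero lay 2 of these 10 enzymes and 5047 of all 10733 tested genes. Among the 10 enzymes ATG10, which joins ATG12 to ATG5, had the smallest unadjusted p, with 6.04, 6.65 and 6.35 in control and 5.74, 5.89 and 5.70 in siGNE cells. All siGNE values lay below all control values, and the difference of -0.57 (SE 0.12) had a limma adjusted p of 0.0523. ATG4C, one of the proteases that trim ATG8 proteins, read 7.61, 7.61 and 7.52 against 6.79, 7.34 and 6.52, a difference of -0.69 (SE 0.16, adjusted p 0.0640). Its fellow proteases differed by -0.31 (ATG4B), 0.16 (ATG4A) and -0.02 (ATG4D), with adjusted p of 0.102, 0.380 and 0.934. The activating enzyme ATG7 was lower in all pairs, at -0.29 (SE 0.09, adjusted p 0.111). The transfer enzyme ATG3 (-0.21), ATG5 (0.08), ATG12 (-0.10) and ATG16L1 (-0.11), whose products form the conjugation machinery around ATG8, had adjusted p between 0.368 and 0.581. EPG5, a tether of autophagosomes to lysosomes, read 4.05, 3.50 and 3.47 in control and 3.61, 3.58 and 3.87 in siGNE cells and was not tested.

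Other probe sets of the same gene had the same sign for the members that rose and the opposite sign for some conjugation enzymes. The 6 members that rose had 9 other tested probe sets, all 9 with a positive difference and 4 of them called as rises. These 4 belonged to SQSTM1, MAP1LC3B and TAX1BP1. The calls of GABARAPL1, OPTN and CALCOCO2 each rest on 1 probe set, as their other tested probe set did not pass (for GABARAPL1 0.64, limma adjusted p 0.0764). SQSTM1 had probe sets at 2.20 (SE 0.16, adjusted p 0.0186) and 1.12 (SE 0.11, adjusted p 0.0242) and another at 0.07 (SE 0.23, adjusted p 0.867), and the other MAP1LC3B probe set rose by 0.90 (SE 0.14, adjusted p 0.0348). WIPI1 had another probe set that rose, by 0.85 (SE 0.10, adjusted p 0.0260), and ATG2B one that rose by 0.49 (SE 0.09, adjusted p 0.0411). Over all members, 9 of 32 other tested probe sets differed in sign from the chosen one, and 2 of these were called.

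Those 2 belonged to ATG3 and ATG5. The second ATG3 probe set read 6.92, 6.79 and 6.44 in control and 9.31, 8.76 and 8.74 in siGNE cells, a rise of 2.22 (SE 0.11, adjusted p 0.0153, and 0.0587 without the block). Its rise was larger than that of any probe set used for a member, while the brighter ATG3 probe set gave -0.21. One ATG5 probe set read 7.12, 7.25 and 6.73 in control and 5.49, 6.14 and 5.93 in siGNE cells, a fall of 1.18 on the log2 scale (SE 0.17, adjusted p 0.0333), while the other tested ATG5 probe sets gave 0.08 and -0.03. ATG4B was also split: its 2 brighter probe sets, prone to cross-hybridisation and passed over by the selection, gave 0.43 and 0.32, and the one used gave -0.31. Which transcripts these probe sets detect was not tested, so the values of ATG3, ATG4B and ATG5 depend on the probe set.

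**Figure D3:**
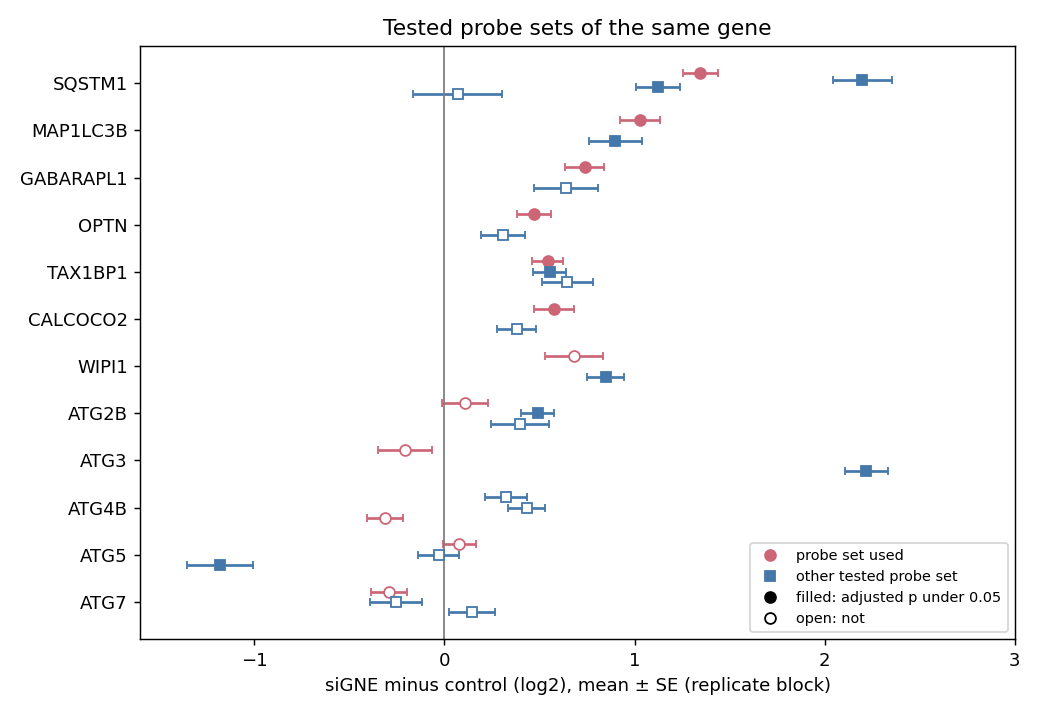
Difference between siGNE and control (log2, horizontal axis, mean ± SE with the replicate block) for every tested probe set of 12 members; red circles are the probe sets used, blue squares the others, and filled symbols passed at an adjusted p under 0.05. The receptors and ATG8 genes lie right of zero with all their probe sets, while ATG3 spans -0.21 to 2.22 and ATG5 spans -1.18 to 0.08.

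Genes that ATF4 or CHOP, transcription factors of the integrated stress response, are reported to induce in mouse cells starved of amino acids form a subset of the members (SQSTM1, NBR1, MAP1LC3B, ATG16L1, ATG12, ATG3, BECN1, GABARAPL2, ATG7, ATG10, GABARAP and ATG5). Of these 12, all tested, 2 rose (SQSTM1 and MAP1LC3B), 6 had a positive difference, and the median was 0.04. Of the 24 tested members outside the subset, 4 rose and the median was 0.15. The share that rose was thus the same inside and outside the subset, and a difference between them was not tested.

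Of 59 tested genes from lists of further pathway components, 5 rose and 3 fell, which is 8.47% and 5.08%, against 4.11% and 5.79% of all tested genes. Of 11 tested further autophagy proteins, TECPR2, which binds ATG8 proteins, rose by 0.96 (SE 0.09, adjusted p 0.0237) and TMEM41B, a lipid scramblase that acts with VMP1, fell by 0.91 (SE 0.15, adjusted p 0.0374), while SH3GLB1 differed by 0.47 (adjusted p 0.0569). Of 14 tested further selective autophagy receptors, 2 rose and 1 fell. Of these 14, 7 had a positive difference, 3 were higher in all pairs and 6 lower in all pairs. Their median difference was 0.01, against 0.51 for the 6 receptors among the members, so the rise did not extend to these further receptors as a group. CCPG1, a receptor for endoplasmic reticulum, rose by 0.79 (SE 0.09, adjusted p 0.0245) and the mitochondrial receptor BCL2L13 by 0.52 (SE 0.09, adjusted p 0.0422), and PHB2, a receptor of the inner mitochondrial membrane, fell by 1.06 (SE 0.13, adjusted p 0.0281). The CCPG1 probe set is of the kind prone to cross-hybridisation. Of 16 genes of fusion with the lysosome, VPS18 rose by 0.72 (SE 0.09, adjusted p 0.0284), VPS11 fell by 0.66 (SE 0.13, adjusted p 0.0459) and VPS16 differed by -0.54 (adjusted p 0.0650), although all belong to the same tethering complex core. Of 18 genes of upstream signalling and transcription, TSC1, an inhibitor of mTORC1, rose by 0.46 (SE 0.09, adjusted p 0.0491), and the mTOR subunit MLST8 (-0.38, adjusted p 0.0738) and the transcription factor TFE3 (0.57, adjusted p 0.0759) did not pass. With all the probe sets of a gene averaged, tested or not, TECPR2 differed by 0.26 (adjusted p 0.0577), BCL2L13 by 0.23 (adjusted p 0.0753) and VPS18 by 0.63 (adjusted p 0.0502), and none of these passed. As with the members, none of the genes of these lists passed in limma without the replicate block, where their smallest adjusted p was 0.0643, for TECPR2.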

How the data were processed

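The deposited table holds log2 expression values normalized by the authors with GCRMA, per the submitters' processing notes; its version is not given in the sources used here. That they are on a log2 scale follows from their range (0.612 to 16.3) and array medians (2.96 to 3.02). The number of arrays limits the precision. Of 54675 probe sets, 22085 with a mean over the 6 arrays above 4, without 62 control probe sets, were tested across all probe sets with limma 3.58.1 in R 4.3.3 (lmFit, eBayes, siGNE minus control, two-sided), with Benjamini-Hochberg adjustment over them. Rise and fall mean an adjusted p under 0.05. The script was checked on simulated data in which every probe set had the same noise. On the arrays the spread differs between probe sets, so that check does not give the error rate of the calls here.

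The replicate number was a block, since the list's definition pairs the arrays by title number, which left 2 residual degrees of freedom. Deviations from the group means correlated at 0.58, 0.71 and 0.83 for arrays of the same number, above a limit of 0.1, and at -0.64 to 0.17 for different numbers. Within a group these deviations cancel out, so high values for the same number push those for different numbers down. The contrast between them is thus partly built in. Members, lists and design were chosen with earlier results of these data known. Symbols came from the platform annotation, updated by gene identifier through RefSeq (GRCh38.p14): 41091 probe sets had 1 gene, 1801 several and 11721 none named here. Named are all members, with array values for those that rose and for the member with the smallest unadjusted p of each other role, GNE, and up to 3 genes of each further list by the smallest unadjusted p. NBR1, ATG4C, VMP1, GABARAP, the untested members and the disagreeing probe sets were chosen for array values after they were seen. Alternatives were the filter, a floor, quantile normalization, median centring, the variance prior, averaging probe sets, the adjustment, its threshold, no block, and leaving out each pair. Averaging took in every probe set of a gene alone, including those near background that the filter leaves out.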

Additional observations from a re-analysis of the deposited data

How the results depend on the processing

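The 6 rises became 0 without the replicate block, 0 with no filter on the mean and 0 when replicate pair 1, 2 or 3 was left out. Leaving out 1 array of a pair is the same as leaving out the pair in this fit, which then has fewer degrees of freedom. Rises numbered 10 with a mean above 6, 11 with a trended and robust prior, 10 with the probe sets of a gene averaged and 12 at an adjusted p under 0.1, and falls numbered 2, 1, 4 and 3 in the same settings. Calls over all tested genes grew too, from 441 rises and 621 falls of 10733 in the main fit. In the same order they were 693 and 1067 of 9262, 748 and 1057 of 10733, 624 and 913 of 10074, and 997 and 1428 of 10733. All 6 members rose again in each of these settings except under averaging, where CALCOCO2 (0.27, adjusted p 0.0532) did not. Averaging also turned ATG3 to 1.01 (adjusted p 0.00984) and ATG5 to -0.38 (adjusted p 0.0284), since their probe sets disagree. Quantile normalization gave 7 rises, median centring 8, and the floor of 4 and the adjustment over 1 probe set a gene each 6, with the same 6 genes among them. In the same order, 583, 616, 451 and 472 of all 10733 tested genes rose. Of the comparisons of single named genes under all settings, 535 kept direction and call, 49 gained and 84 lost the call in the same direction, 17 changed sign without a call and 2 reversed. The members' median difference stayed between 0.03 and 0.15. Signal close to background limits ULK1, ULK2, MAP1LC3A and EPG5.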
